A study of Homo sapiens with 6 samples.

Results

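DDX60, DDX60L, HELZ2, SAMD9, SAMD9L, SLFN5, SLFN11, SLFN12 and SLFN13 encode helicases, nucleases and related proteins that act against viruses inside the cell, and their mRNA levels were examined in HT29 cells, a human colorectal cancer line of epithelial origin. They make up 9 of the 28278 genes listed in the count data, and they were picked by name and family with the difference between the groups already known, so that their values are given as a description, without a test. Of the 9 genes, 6 had enough reads to be compared and 3 (SLFN11, SLFN12 and SLFN13) did not. The cells received an siRNA against ALDOA, the glycolytic enzyme aldolase A (siALDOA), or a scrambled siRNA (siControl), and RNA was taken 48 h later. Each group held 3 libraries that the labels call biological replicates, and p-values measure the spread between these samples only. The labels name siALDOA, and the study gives a sequence for an shRNA against ALDOA but none for an siRNA. No untransfected cells were analysed here. The loss of ALDOA and any other effect of siALDOA therefore cannot be told apart.

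Many genes that restrict viruses are switched on by interferons. RNA sensors such as RIGI and IFIH1 detect foreign or misplaced RNA and signal through MAVS to IRF3 and IRF7, which drive the interferon genes. Secreted interferon then acts through a complex that holds STAT2 and IRF9 and binds a short promoter sequence called the interferon-stimulated response element. DDX60 and DDX60L are helicases of the DExD/H-box type, SAMD9 and SAMD9L are large cytoplasmic proteins that block poxviruses and slow protein synthesis, and several Schlafen proteins cut transfer RNA.

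ALDOA itself was at 283, 305 and 280 CPM (read counts scaled to a common library size by TMM normalization) with siALDOA and at 592, 637 and 668 CPM with siControl, a log2 fold change of -1.13 (SE 0.0601, edgeR's quasi-likelihood test with Benjamini-Hochberg adjustment, adjusted p = 6.95e-11). The libraries held 27277538 to 28690395 counts with siALDOA and 31899091 to 33237914 counts with siControl. Of the listed genes, 15307 passed the filter on low counts and were tested. Ribosomal RNA genes took 7.71% to 13.1% of the siALDOA counts and 8.15% to 17.4% of the siControl counts. Several copies of these genes held the same count in a library, so that their reads may have been counted more than once in these shares and in the totals. Of 12 colon epithelial markers 11 passed the filter, and LGALS4 was at 0 in every library. Summed over that list the level was 9490 to 9840 CPM with siALDOA and 10100 to 10600 CPM with siControl, with KRT8 the most abundant. KRT19 was higher by 0.38 (adjusted p = 0.000577), while CEACAM6 fell by 0.43 (adjusted p = 0.00411). KRT18 fell by 0.28 (adjusted p = 0.0152), a call lost without siALDOA replicate 2 or 3 or siControl replicate 2 or 3 (adjusted p = 0.0512 to 0.075) and when scaled by library totals only (adjusted p = 0.243). The part of these markers in the results was not tested. Of 14 blood cell markers 3 passed the filter, and TYROBP, CD3E, MS4A1 and LST1 were at 0 in every library. Their summed level was 20.2 to 22.2 CPM with siALDOA and 15.1 to 18.2 CPM with siControl, of which CD14 took most. CD14 passed the test at a log2 fold change of 0.32 (adjusted p = 0.0485) but not with limma-voom (adjusted p = 0.0525), nor when siALDOA replicate 2 or 3 or any siControl library was left out (adjusted p = 0.0629 to 0.153). For 8 fibroblast markers the summed level was 3.16 to 4.47 CPM with siALDOA and 3.21 to 4.46 CPM with siControl.

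Promoter sequences, from 250 bases before to 50 bases after the start of transcription, were taken from RefSeq (GRCh38.p14) for 7 of the 9 genes, all but SLFN5 and SLFN13. They were searched on both strands for GAAANNGAAA, the core of the interferon-stimulated response element, and for AANNGAAA, the shorter element bound by interferon regulatory factors, which lies inside every match of the longer one. GAAANNGAAA was found in 3 of the 7 genes and in 3.57% of all 35116 promoters. AANNGAAA was found in 6 of the 7, all but SLFN11, and in 22.8% of all promoters. The windows below, written 5′ to 3′ from 150 bases before the start to 20 bases from it, are shown because the helicase pair and the SAMD9 pair differ in these letters, and capitals mark matches to either pattern.
DDX60, chr4:168318733-168318902, minus strand: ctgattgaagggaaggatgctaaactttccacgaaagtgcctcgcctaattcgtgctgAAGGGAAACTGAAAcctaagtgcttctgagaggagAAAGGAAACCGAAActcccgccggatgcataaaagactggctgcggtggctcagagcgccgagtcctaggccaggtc
DDX60L, chr4:168480473-168480642, minus strand: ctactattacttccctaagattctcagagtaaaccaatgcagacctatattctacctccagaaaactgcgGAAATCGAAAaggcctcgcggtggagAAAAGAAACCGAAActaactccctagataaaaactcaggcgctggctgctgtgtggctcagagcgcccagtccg
HELZ2, chr20:63574220-63574389, minus strand: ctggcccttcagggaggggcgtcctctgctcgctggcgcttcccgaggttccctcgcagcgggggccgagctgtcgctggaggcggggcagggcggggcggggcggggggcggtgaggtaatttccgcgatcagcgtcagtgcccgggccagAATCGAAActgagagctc
SAMD9, chr7:93117960-93118129, minus strand: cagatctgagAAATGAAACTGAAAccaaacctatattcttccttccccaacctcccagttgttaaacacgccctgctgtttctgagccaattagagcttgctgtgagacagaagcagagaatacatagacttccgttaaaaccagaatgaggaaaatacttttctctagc
SAMD9L, chr7:93148366-93148535, minus strand: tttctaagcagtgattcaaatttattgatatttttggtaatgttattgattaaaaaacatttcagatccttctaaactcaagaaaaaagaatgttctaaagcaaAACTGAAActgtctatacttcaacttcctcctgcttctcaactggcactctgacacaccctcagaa
SLFN11, chr17:35373602-35373771, minus strand: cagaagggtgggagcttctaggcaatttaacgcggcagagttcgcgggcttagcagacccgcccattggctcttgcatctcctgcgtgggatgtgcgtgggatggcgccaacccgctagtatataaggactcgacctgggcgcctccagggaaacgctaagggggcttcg

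The promoters of DDX60 and DDX60L each held GAAANNGAAA at a pair of places, from -88 to -79 and from -53 to -44 relative to the start in DDX60, and from -80 to -71 and from -50 to -41 in DDX60L. Their matches nearest to the start had the same letters, GAAACCGAAA. SAMD9 held a single match, farther out, from -136 to -127. SAMD9L had no match to the longer pattern and a single match to the shorter one, from -46 to -39. In HELZ2 the shorter pattern lay just after the start, from 2 to 9, and a second RefSeq start of the gene had no match. SLFN12 held the shorter pattern from -74 to -67 and from -11 to -4. TTCNNNGAA, the letters of the gamma-activated site, lay in DDX60 from -124 to -116 and in SLFN11 from -182 to -174, and in 7.66% of all promoters. TATAAA lay in none of the 7 and in 11.5% of all promoters. The promoters also differed in base composition. HELZ2 was at 73.3% G and C with 29 CpG sites at its first start and SAMD9L at 34.3% with 0 CpG sites, against a median of 58.7% and 14 sites over all promoters. A match in these windows is a description of the letters and not of binding.

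DDX60 (ENSG00000137628), which binds viral RNA and has been linked to RIG-I signalling, lies on the minus strand at chr4:168216291-168318883 of hg38 and has 38 exons. Its mRNA level was 95.6, 115 and 102 CPM with siALDOA and 42.4, 49.9 and 45.7 CPM with siControl. Every siALDOA library lay above every siControl library. The means were 104 ± 10 CPM and 46.0 ± 3.77 CPM (SD, n = 3 each), a log2 fold change of 1.18 (SE 0.0766) or 2.27-fold. More cells that express a gene and more RNA per cell cannot be told apart in these bulk samples, here and for every gene that follows.

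DDX60L (ENSG00000181381), the neighbouring paralog that has been linked to restriction of hepatitis C virus, lies on the same strand at chr4:168356735-168537786 and also has 38 exons. The RefSeq start whose promoter is printed above lies inside this GENCODE span, so that the promoter may not be that of the GENCODE transcript. The RefSeq starts of DDX60, SAMD9, SLFN11 and SLFN12 also lie inside their GENCODE spans, though nearer to the edge. The distances of the matches from the start thus depend on the start chosen. DDX60L was at 103, 125 and 115 CPM with siALDOA and at 37.9, 42.0 and 33.3 CPM with siControl. The groups were again apart, and the difference was the widest of the 6 genes compared. The mean levels were 114 ± 10.6 CPM and 37.7 ± 4.36 CPM (SD, n = 3 each), 1.60 on the log2 scale (SE 0.0828) or 3.04-fold. The gene spans part of PALLD, although no exon of the transcript used here overlaps another gene's exon.

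HELZ2 (ENSG00000130589), a large helicase and exoribonuclease that also acts as a coactivator of nuclear receptors, lies on the minus strand at chr20:63558086-63574239 with 20 exons. Its level was 671, 923 and 939 CPM with siALDOA and 440, 459 and 477 CPM with siControl. The lowest siALDOA library, replicate 1, lay above all siControl libraries but well below the other siALDOA libraries. The means of 844 ± 150 CPM and 459 ± 18.5 CPM (SD, n = 3 each) gave a log2 fold change of 0.88 (SE 0.0902), 1.84-fold. Without siALDOA replicate 1 the value was 1.02, and without siALDOA replicate 3 it was 0.80.

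SAMD9 (ENSG00000205413), which halts protein synthesis in poxvirus-infected cells, has 3 exons and lies on the minus strand at chr7:93099513-93118023. It was at 350, 423 and 377 CPM with siALDOA and at 165, 188 and 173 CPM with siControl. All 3 siALDOA values lay well above the siControl values. The means were 383 ± 36.8 CPM and 175 ± 12 CPM (SD, n = 3 each), a log2 fold change of 1.13 (SE 0.0693) or 2.19-fold.

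SAMD9L (ENSG00000177409), the paralog of SAMD9 with inherited variants that cause ataxia and bone marrow failure, has 5 exons and lies next to it at chr7:93130056-93148385 on the minus strand. It was the least abundant of the genes compared, with 31.3, 42.7 and 39.6 CPM with siALDOA and 12, 15.5 and 14.7 CPM with siControl. The lowest siALDOA library held 871 counts and the highest siControl library held 483. The means of 37.9 ± 5.90 CPM and 14.0 ± 1.85 CPM (SD, n = 3 each) gave a log2 fold change of 1.43 (SE 0.114), 2.70-fold.

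SLFN5 (ENSG00000166750), a Schlafen protein that represses transcription of herpesvirus genes, lies on the plus strand at chr17:35243071-35273655 with 5 exons. It was at 164, 205 and 204 CPM with siALDOA and at 104, 99.7 and 108 CPM with siControl. The siControl libraries were close together, and siALDOA replicate 1 was again the lowest of its group. The means of 191 ± 23.3 CPM and 104 ± 4.11 CPM (SD, n = 3 each) gave a log2 fold change of 0.88 (SE 0.0741), 1.84-fold.

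The other Schlafen genes of the same chromosome 17 cluster were at or near 0. SLFN11, which arrests stressed replication forks and restricts retroviruses by acting on transfer RNA, had 2 counts in siALDOA replicate 3 and 0 in the other 5 libraries. SLFN12, which cuts transfer RNA when bound to the phosphodiesterase PDE3A, and SLFN13, a nuclease that cuts transfer and ribosomal RNA, had 0 counts in all 6 libraries. A count of 0 allows up to 3 counts, which is 0.091 to 0.108 CPM depending on the library, for counting error only. At this depth no difference between the groups could be detected for these genes. SLFN12L was likewise at 0 in every library, although its promoter held GAAANNGAAA from -126 to -117. SLFN14 had 15 counts in siControl replicate 1 and 0 to 2 counts in each other library. SLFNL1, a relative that lies outside the cluster, had 14 to 28 counts per library and a log2 fold change of -0.02 (SE 0.434, adjusted p = 0.981). SLFN5 was the single Schlafen gene of the cluster that passed the filter on low counts.

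Over all tested genes 668 were higher with siALDOA at an adjusted p below 0.05, which is 4.36%, and 810 were lower, which is 5.29%. Scaled by library totals only, 896 were higher and 279 lower. With a single library left out, 359 to 644 were higher and 471 to 790 lower. All 6 genes compared were among those that were higher, and since this same contrast was known when they were picked, nothing is read from that count. By the unadjusted threshold of 0.01 that the study used, 5.72% of tested genes were higher, and all siALDOA values of the 6 genes lay above all siControl values, as for 13.1% of all tested genes. Their median log2 fold change was 1.16, against 0.00162 over all tested genes. The 6 genes were higher under each of 14 alternative settings and left-out libraries, which reuse the same 6 libraries. Some values moved by more than the SE. Without siALDOA replicate 1, HELZ2 went from 0.88 (SE 0.0902) to 1.02 and SLFN5 from 0.88 (SE 0.0741) to 0.98.

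Within the siALDOA group the libraries kept a common order. Replicate 1 had the lowest level of all 6 genes, by a median of -0.176 on the log2 scale from the group mean with a range of -0.315 to -0.123. Replicate 2 had the highest level of 5 of the 6 genes, and replicate 3 that of HELZ2. In the siControl group replicate 1 was the lowest for 4 genes and replicate 2 the highest for 4 genes, with deviations from -0.221 to 0.161 over the group. The share of ribosomal RNA was 13.1% in siALDOA replicate 1 and 7.71% and 8.11% in replicates 2 and 3. In siControl replicates 1, 2 and 3 it was 17.4%, 15.3% and 8.15%, so that replicate 2, the highest for 4 genes, also had a high share. The part of ribosomal RNA in these differences was not tested.

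**Figure D1:**
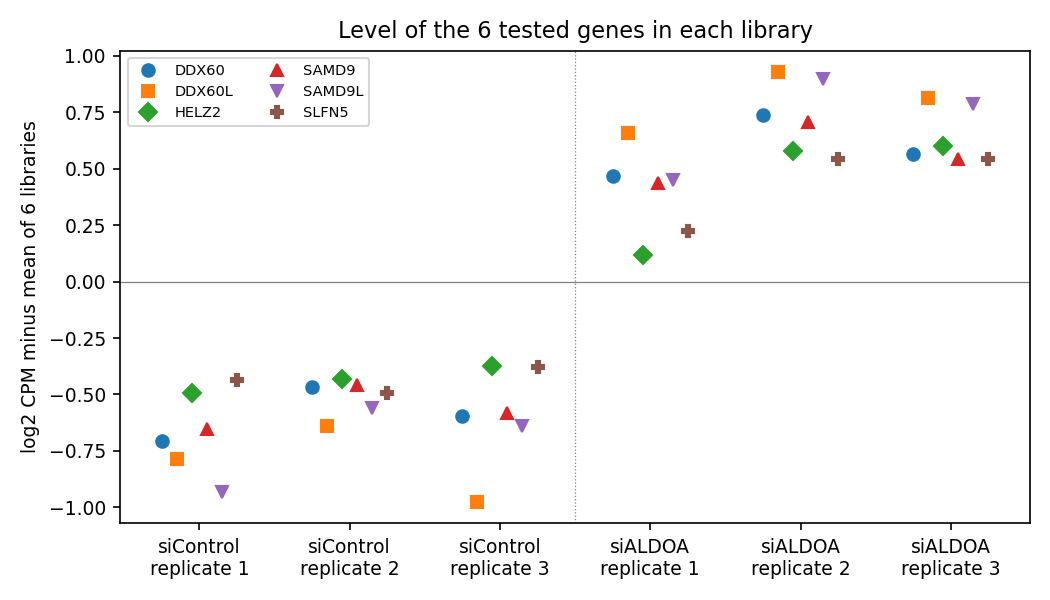
Level of the 6 genes in each library as log2 CPM minus the gene's mean over 6 libraries (vertical axis), with libraries along the horizontal axis and 1 symbol per gene. All siControl points lie below 0 and all siALDOA points above it, with siALDOA replicate 1 the lowest of its group for all 6 genes.

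Levels were compared between genes as CPM per kilobase of transcript. With siControl, HELZ2 was the highest at 45.9 ± 1.85 CPM per kilobase (SD, n = 3), followed by SAMD9 at 25.7 ± 1.76, SLFN5 at 9.83 ± 0.389, DDX60 at 7.65 ± 0.626, DDX60L at 5.58 ± 0.645 and SAMD9L at 1.96 ± 0.258. No neighbours in that order overlapped. With siALDOA the level was 84.4 ± 15 CPM per kilobase for HELZ2, 56.3 ± 5.40 for SAMD9, 18.1 ± 2.21 for SLFN5, 17.4 ± 1.67 for DDX60, 16.9 ± 1.57 for DDX60L and 5.29 ± 0.826 for SAMD9L. The values of SLFN5 and DDX60 now overlapped, as did those of DDX60 and DDX60L, so that the middle of the order could not be separated. The lengths were those of a single GENCODE transcript per gene, and which transcripts HT29 cells use is not known from these counts.

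**Figure D2:**
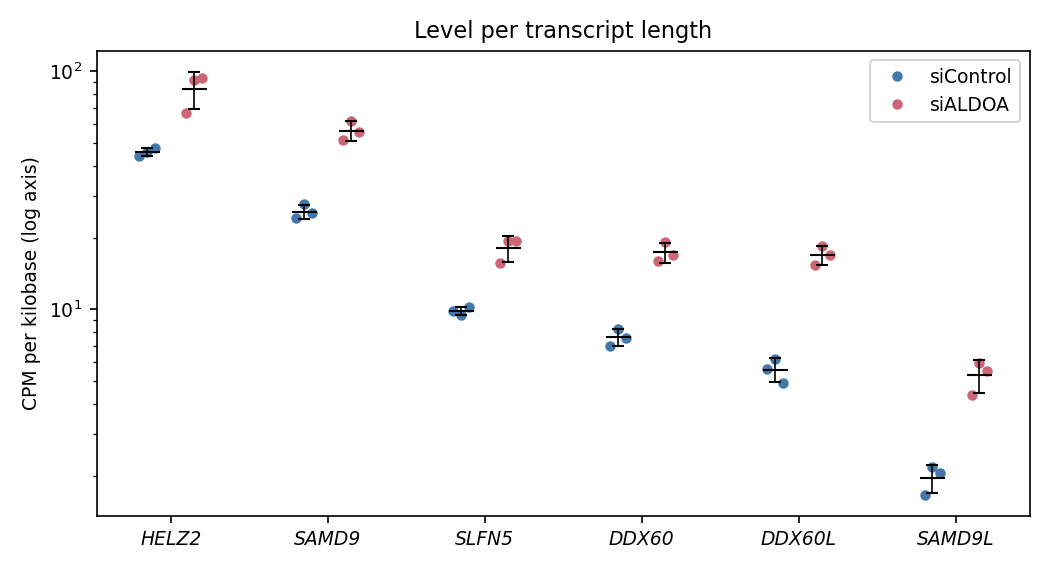
CPM per kilobase of transcript on a log axis for each of the 6 genes, with points for libraries, bars for the mean and whiskers for the SD (n = 3). HELZ2 was the highest (45.9 with siControl, 84.4 with siALDOA) and SAMD9L the lowest (1.96 and 5.29).

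The balance within the paralog pairs was read from the ratio of read counts in the same library, which does not depend on scaling. DDX60L over DDX60 was 1.08, 1.08 and 1.13 with siALDOA and 0.893, 0.841 and 0.728 with siControl. The paralog had more reads than DDX60 in every siALDOA library and fewer in every siControl library. The DDX60L transcript is the longer of the pair, and per length the ratio was 0.963, 0.961 and 1.0 with siALDOA and 0.794, 0.748 and 0.648 with siControl. On that scale DDX60L was near DDX60 with siALDOA and below it with siControl. The mean ratio of read counts was 1.1 ± 0.0256 with siALDOA and 0.820 ± 0.0843 with siControl (SD, n = 3 each). By read counts, SAMD9L over SAMD9 was 0.0894, 0.101 and 0.105 with siALDOA and 0.0727, 0.0823 and 0.0849 with siControl. These groups did not overlap either, but the lowest siALDOA and the highest siControl ratio were close. The means were 0.0984 ± 0.00803 and 0.0799 ± 0.00644 (SD, n = 3 each). In both pairs the paralog with the L suffix had the larger fold change.

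**Figure D3:**
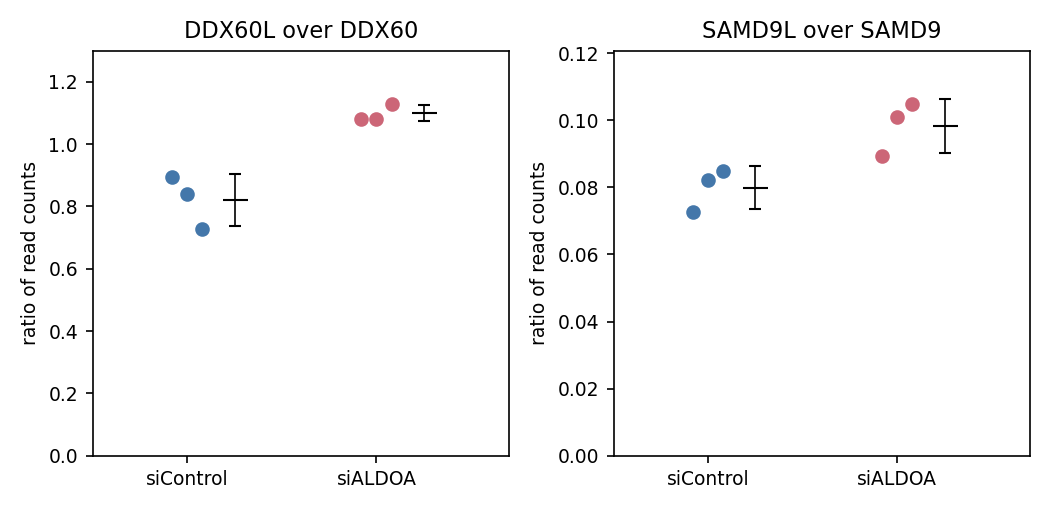
Ratio of read counts of DDX60L over DDX60 (left) and SAMD9L over SAMD9 (right) in each library, from 0, with the mean and SD (n = 3) beside the points. The siALDOA ratios (mean 1.1 and 0.0984) lie above all siControl ratios (mean 0.820 and 0.0799).

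Reads can be split between near-identical copies, so the likeness of the sequences was measured. The coding sequences of DDX60 and DDX60L were 78.4% identical over 5055 aligned bases and those of SAMD9 and SAMD9L 72.5% over 4696. Windows of 50 bases that also occur in another gene made up 0.704% of the DDX60 transcript, 0.626% of DDX60L, 0.311% of HELZ2 and 0.2% of SLFN5. SAMD9 and SAMD9L shared none. For these 6 genes few windows could thus be counted on another gene. SLFN11 and SLFN13 were 87.2% identical and shared 12.1% and 8.0% of their windows, mostly with each other, and both were at or near 0.

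The genes that lie beside the 4 loci were examined next, 3 protein-coding genes on each side. Of 24 neighbours 19 were tested, 1 was higher and 1 lower, and their log2 fold changes ran from -0.50 to 0.36 around a median of 0.04. ANXA10, an annexin that lies 28558 bases from DDX60, was lower (18.5 ± 1.99 CPM with siALDOA and 26.2 ± 0.796 CPM with siControl, log2 fold change -0.50, SE 0.0934, adjusted p = 0.00131). CBR4, a mitochondrial reductase on the far side of DDX60L, was higher by 0.36 (SE 0.108, adjusted p = 0.0421). Its call was lost with limma-voom (adjusted p = 0.0534) and when siALDOA replicate 1 or 3 or any siControl library was left out (adjusted p = 0.0782 to 0.158). PALLD, which overlaps the span of DDX60L, had a log2 fold change of -0.20 (SE 0.129, adjusted p = 0.391). Beside HELZ2, FNDC11 at 1378 bases was at 0.10 (SE 0.300) and GMEB2 at 0.07 (SE 0.0695). Beside the SAMD9 pair, CDK6 was at 0.13 (SE 0.0728) and HEPACAM2 at 0.18 (SE 0.176). Beside the Schlafen cluster, AP2B1, an adaptor subunit of clathrin coats, was at -0.01 (SE 0.0522). Each of the 6 genes had a larger fold change than every tested neighbour of its locus. The 6 genes were picked with this contrast known and the neighbours by position, so that nothing is read from this.

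**Figure D4:**
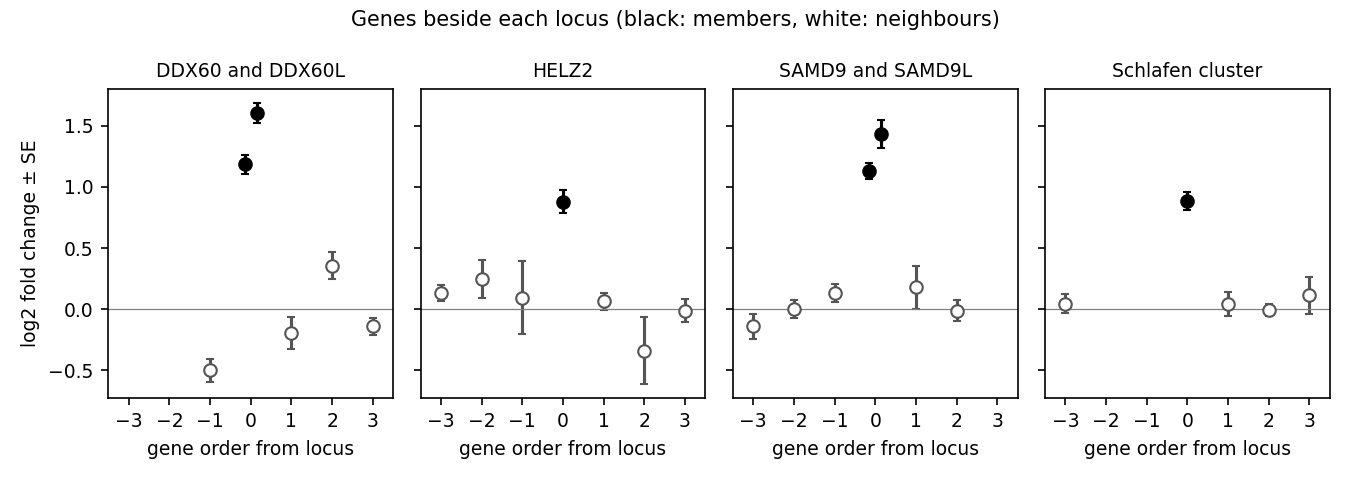
Log2 fold change with its SE for the genes at each of the 4 loci, plotted by gene order from the locus (untested genes have no point), with black points for the 6 genes described and white points for neighbours. Neighbours lie between -0.50 and 0.36 and the black points between 0.88 and 1.60. The 6 genes were picked with this contrast known, the neighbours by position.

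Related genes were then counted by role, from lists that also hold genes that did not differ. The lists were chosen with earlier results of these data known, so that nothing is read from the counts that follow. Together these lists had 136 genes, of which 117 were tested, 17 were higher and 8 lower at a median log2 fold change of 0.04. Over all tested genes 4.36% were higher and 5.29% lower. The number of lower related genes was 3 when scaled by library totals only and 3 to 7 with a single library left out. Among 49 tested DDX and DHX helicases, the wider family of DDX60, 3 were higher and 3 lower, with a median of -0.03. The RNA sensors RIGI and DHX58 were higher at 1.21 and 0.89, as was DDX24, a nucleolar helicase, at 0.33. DDX21, a helicase of ribosome synthesis, fell by 0.43 (adjusted p = 2.82e-05) and DDX41, a sensor of cytosolic DNA, fell by 0.36 (adjusted p = 0.00101). The remaining lower gene, DDX27, fell by 0.24 (adjusted p = 0.0238) and lost its call without siALDOA replicate 1 or without siControl replicate 2 or 3 (adjusted p = 0.0576 to 0.125), and also when scaled by library totals only (adjusted p = 0.265).

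Among 9 tested helicases of the UPF1 type, to which HELZ2 belongs, 1 was higher and 1 lower. ZNFX1, a sensor of viral RNA at mitochondria, was at 369 ± 33.0 CPM with siALDOA and 263 ± 9.17 CPM with siControl (SD, n = 3 each), a log2 fold change of 0.48 (SE 0.0639, adjusted p = 3.03e-05). HELZ, the closest relative by name, was at 137 ± 4.83 CPM and 134 ± 9.70 CPM, a log2 fold change of 0.04 (SE 0.0624, adjusted p = 0.775). AQR, a helicase of the spliceosome, fell by 0.21 (adjusted p = 0.0342). Its call was lost without siALDOA replicate 2 or 3 or siControl replicate 2 or 3 (adjusted p = 0.075 to 0.158) and when scaled by library totals only (adjusted p = 0.364). Of 9 tested nuclear receptor partners of HELZ2, 2 were lower at an adjusted p below 0.05 by edgeR. RXRA, the receptor with which PPAR proteins pair, was at 159, 172 and 174 CPM with siALDOA and at 235, 217 and 232 CPM with siControl (log2 fold change -0.44, SE 0.0586, adjusted p = 3.65e-05). THRAP3 fell by 0.22 (adjusted p = 0.0268). Its call was lost without siALDOA replicate 1 or 2 or siControl replicate 2 or 3 (adjusted p = 0.0615 to 0.163) and when scaled by library totals only (adjusted p = 0.325).

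Of 12 tested genes of the RIG-I-like receptor pathway, with which DDX60 has been linked, 5 were higher and 1 lower. RIGI was at 134, 147 and 151 CPM with siALDOA and at 60.8, 64.2 and 62.3 CPM with siControl, a log2 fold change of 1.21 (SE 0.063, adjusted p = 6.02e-11). IFIH1 was at 106 ± 5.84 CPM and 44.6 ± 3.34 CPM (SD, n = 3 each), a log2 fold change of 1.25 (SE 0.0695, adjusted p = 1.28e-10). These sensors thus had fold changes near that of DDX60. IRF7 was higher by 0.76, DHX58 by 0.89 and the ubiquitin ligase TRIM25 by 0.42. MAVS, the adaptor of both sensors, fell by 0.22 (SE 0.0584, adjusted p = 0.0185). Its call was lost without siControl replicate 1 or 3 (adjusted p = 0.0783 and 0.0782) and when scaled by library totals only (adjusted p = 0.315).

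Of 13 tested interferon signalling genes 5 were higher at an adjusted p below 0.05 by edgeR. STAT2 was higher by 0.78 (adjusted p = 1.63e-07), the interferon-induced inhibitor USP18 by 0.70 and IRF1 by 0.39. IRF9 was higher by 0.27 (adjusted p = 0.0253), a call that was lost in each fit that left out a library other than siALDOA replicate 1 (adjusted p = 0.0518 to 0.161). Interferons themselves were scarce. IFNL1, an interferon of epithelial cells, was counted 16, 17 and 13 times in the siALDOA libraries and 5, 4 and 3 times in the siControl libraries (log2 fold change 2.03, SE 0.567, adjusted p = 0.0266), and its call was lost whichever library was left out (adjusted p = 0.0552 to 0.137). It passed the filter on low counts through the siALDOA group alone, where it was high, so that this call carries little weight. IFNE, an interferon of mucosal epithelia, was at 7.55 ± 1.18 CPM and 4.79 ± 1.31 CPM (adjusted p = 0.0287), and lost its call without siALDOA replicate 1 or siControl replicate 2 or 3 (adjusted p = 0.0906 to 0.158). The other 8 interferon genes of the list were too low to be tested, and no difference is read from their counts. IFNA1 was counted 11, 4 and 7 times in the siALDOA libraries and 7, 2 and 1 times in the siControl libraries, so that these groups overlapped. IFNB1 was counted 2, 5 and 6 times, IFNL2 3, 11 and 17 times, IFNL3 4, 9 and 10 times and IFNL4 4, 3 and 0 times in the siALDOA libraries. In the siControl libraries IFNL3 had 0, 0 and 2 counts and the other three were at 0. IFNL2 and IFNL3 are close copies between which reads may be shared. IFNK had 1 count in siALDOA replicate 3 and 0 elsewhere, and IFNW1 and IFNG were at 0 in every library.

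Genes that act beside the SAMD9 and Schlafen proteins in translation and replication were counted last. Of 11 tested genes of translation stress 2 were higher and 1 lower, with a median of -0.01. EIF2AK2, the kinase PKR that stops translation on sensing double-stranded RNA, was at 448 ± 14.6 CPM and 277 ± 13.5 CPM (SD, n = 3 each), a log2 fold change of 0.69 (SE 0.0568, adjusted p = 3.36e-08). ZC3HAV1, the antiviral zinc finger protein, was higher by 0.29 (adjusted p = 0.00275). EIF2AK4, the kinase GCN2 that senses uncharged transfer RNA, had a log2 fold change of -0.07 (SE 0.0792, adjusted p = 0.672). DDIT3, a transcription factor of the stress response, fell by 0.31 (adjusted p = 0.0349) and lost its call without siALDOA replicate 3 or siControl replicate 2 or 3 (adjusted p = 0.118 to 0.173) and when scaled by library totals only (adjusted p = 0.178). Of 11 tested partners of SLFN11 at replication forks 1 was higher, ATRIP, the partner of the kinase ATR, by 0.49 (SE 0.109, adjusted p = 0.00587). PDE3A, the partner of SLFN12, had 1, 2 and 0 reads in the siALDOA libraries and none under siControl. PDE3B, a related phosphodiesterase, had a log2 fold change of 0.08 (SE 0.0694, adjusted p = 0.507) and did not pass the test.

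**Figure D5:**
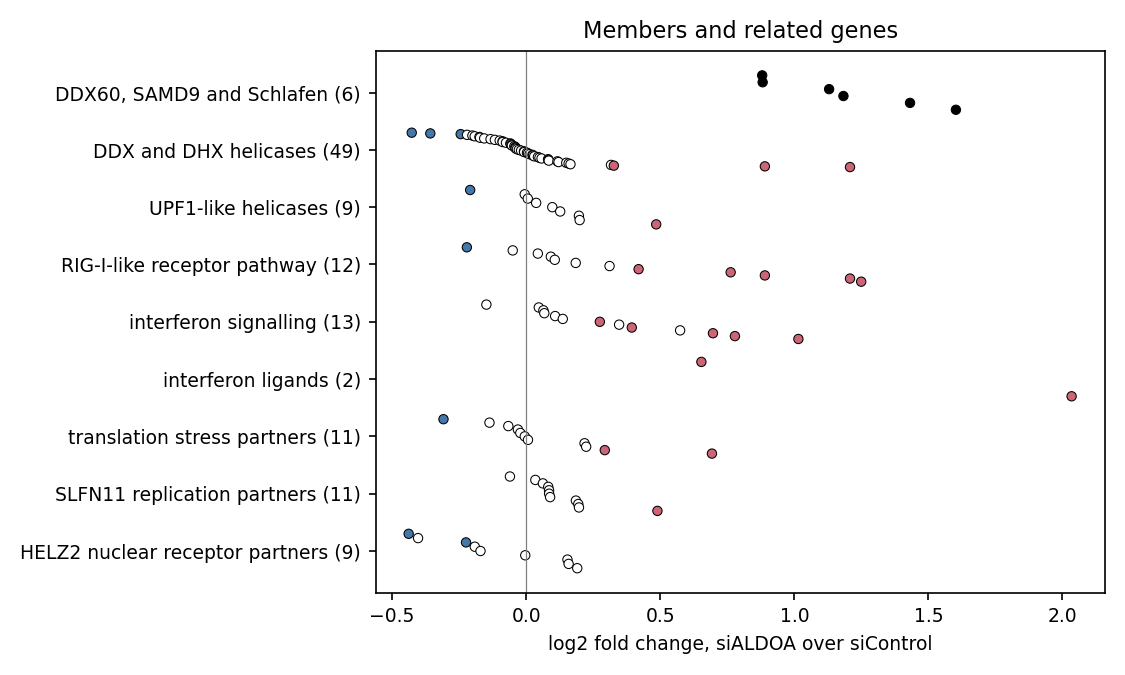
Log2 fold change of the 6 genes (black) and of the related lists, 1 point per tested gene, with red for higher and blue for lower at an adjusted p below 0.05, white for the rest and the number tested in parentheses. Most helicases of the DDX and DHX family lie near 0, with a median of -0.03. The 6 genes, which were picked with this contrast known, lie between 0.88 and 1.60. RIGI (1.21) and DHX58 (0.89) of that family lie within the same range.

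Genes with the most similar pattern were found as those with the smallest root mean square difference of log2 CPM, centred per gene, over the 6 libraries among 13718 genes, from which the 6 genes described here were left out. The order given is therefore that of the other genes only. ISG15, a ubiquitin-like protein induced by interferon, was the nearest to DDX60 (0.0211) and to SAMD9 (0.0395). Next to DDX60 came TLDC2 (0.0638) and IFIH1 (0.0671), and among the 3 genes nearest to SAMD9 was SAMHD1 (0.0742), a nucleotide hydrolase that restricts retroviruses. HSH2D, an adaptor protein, was the nearest to both HELZ2 (0.0513) and SLFN5 (0.048), followed in both by HERC6 (0.0606 and 0.0544), a ubiquitin ligase. After these came UBA7, which activates ISG15, for HELZ2 (0.0823) and SLC25A28, an iron carrier of mitochondria, for SLFN5 (0.0587). The 6 points fall into the 2 groups, so that the measure reflects mainly the size of the group difference and then the order of the libraries.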

How the data were processed

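RNA-Seq of 6 HT29 libraries was analysed, 3 with siALDOA and 3 with siControl, with groups and replicate numbers from the sample labels. Reads were mapped by the authors against hg38 (TopHat2) and counted per gene (gfold), and the deposited counts are whole numbers per gene symbol without normalization. The annotation, the strand setting and the treatment of multiply matching reads were not given in the sources used here, so that reads of overlapping, antisense and near-identical genes may be shared.

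Counts were filtered with filterByExpr, scaled by TMM and tested with edgeR 4.0.16 in R 4.3.3 by the quasi-likelihood F-test of siALDOA against siControl over all 15307 genes, without covariates. P-values were adjusted by the Benjamini-Hochberg method over all tested genes, with a threshold of 0.05. Fold changes are log2 of siALDOA over siControl, and each SE is that value over the square root of F. Log2 CPM used a prior count of 2. The fit was also run on simulated counts, and the outcome is not reported here. Transcript lengths, exons and positions came from GENCODE release 44 (hg38), with the canonical transcript of each gene, since the count files hold no positions. Neighbours and promoters came from RefSeq (GRCh38.p14). Coding sequences were aligned with biopython 1.88, and figures were drawn with matplotlib 3.10.9.

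The members, gene lists and marker lists were chosen with earlier results of these data known, and the promoter patterns after the sequences were seen. Named genes were the 9 members, their Schlafen relatives, ALDOA, all SLFN12 partners, up to 4 called genes with the smallest p of each other related list, RIGI, IFIH1, MAVS, HELZ and EIF2AK4 by role, the 3 nearest protein-coding genes on each side of each locus, and the 3 genes nearest in pattern to DDX60, HELZ2, SAMD9 and SLFN5. Some genes that this rule took are not reported here. DDX24, DDX27, IRF9, the untested interferon genes, CD14, KRT8, KRT18, KRT19 and CEACAM6 were named after their values were seen. Alternatives were DESeq2 1.42.0, limma-voom (limma 3.58.1), upper quartile scaling, library totals with and without ribosomal RNA genes, a filter of 10 counts in every library, no filter at all, the replicate number as a block, an unadjusted threshold of 0.01 and each library left out in turn.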

Additional observations from a re-analysis of the deposited data

How the results depend on the processing

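The 6 compared genes kept their direction and call under all alternatives run. With scaling by library totals only, 279 genes in all were lower in place of 810 and 3 related genes in place of 8, while the median of all genes moved from 0.00162 to 0.0753. With ribosomal RNA genes left out of those totals, 735 genes were higher and 760 lower, 8 related genes were lower and the median was 0.00988, so that most of this shift went with the ribosomal RNA counts. With limma-voom 0 neighbours were higher in place of 1. With a single library left out, 359 to 644 genes were higher and 471 to 790 lower. The lowest counts came without siControl replicate 2 (359 higher and 490 lower) and without siControl replicate 3 (363 and 471). Related genes that were lower numbered 3 to 7 and neighbours that were higher 0 to 1. Same-numbered libraries deviated together only weakly (r = 0.0348, 0.0274 and 0.0262), although each library correlated best with its own number. The labels do not say whether same-numbered libraries were handled together, and this was not tested. With the replicate block 987 genes were higher and 1175 lower, in place of 668 and 810. The cause of the shifts with limma-voom and with the block was not tested, and the fits with a library left out rest on fewer samples. IFNL1 had no adjusted p by DESeq2 and lost its call with no filter on low counts (adjusted p = 0.0897). With 3 libraries a group, genes under the filter on low counts gave no comparison.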
